A study of Homo sapiens with 6 samples.

Results

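The human mitochondrial genome encodes 37 RNAs, and all 37 were found by their gene symbols among the 59609 gene names of the deposited tables: 13 mRNAs for subunits of the respiratory chain, 2 ribosomal RNAs (rRNAs) and 22 transfer RNAs (tRNAs). They were followed under 3 media in 95D, an established line of human lung cancer cells labelled as wild type. One library came from cells kept for 48 h in DMEM without glutamine, 2 libraries from cells kept for 48 h in DMEM without glucose and 2 from cells kept in complete control DMEM. All cells had first been seeded for 24 h in complete medium with 10% serum. Both deprived media held dialyzed serum, which is not named for the control, so the missing nutrient and the serum cannot be told apart in a comparison with control, whereas both deprivations share dialyzed serum. A second glutamine-deprived library is labelled, but the header of the remaining value column names another sample, and it was not analysed here. Nothing in the labels says that replicates came from separate cultures, and all libraries come from a single cell line.

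Mitochondrial DNA is a small circle, and its RNAs are made in a way that ties them together. A dedicated RNA polymerase copies almost the whole circle from each strand into long polycistronic RNAs, from which the tRNAs are cut out and thereby release most of the mRNAs and rRNAs between them. The transcript from the heavy-strand promoter carries 28 of the 37 genes, with both rRNAs, 12 mRNAs and 14 tRNAs. The transcript from the light-strand promoter carries 9 genes, the mRNA MT-ND6 and 8 tRNAs, and is otherwise antisense RNA that is degraded. Because genes of a strand share a precursor, differences in level between them are known to arise largely from processing and decay.

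On GRCh38, the build named in the submitters' processing notes, the heavy-strand genes run from chrM:577 to chrM:15953 on the plus strand of the annotation and the light-strand genes lie on the minus strand. Both MT-ATP8 with MT-ATP6 and MT-ND4L with MT-ND4 are pairs of mRNAs translated from a shared RNA in overlapping frames. These overlaps matter because a read on shared bases lies in both genes, and how such reads were counted is not given. They are shown with the shared bases in capitals, 46 for the ATP pair (chrM:8512-8587) and 7 for the ND4 pair (chrM:10730-10796), and both stretches open with the start codon ATG of the downstream gene.
MT-ATP8/MT-ATP6: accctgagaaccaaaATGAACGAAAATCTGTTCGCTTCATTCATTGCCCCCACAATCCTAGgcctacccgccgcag
MT-ND4L/MT-ND4: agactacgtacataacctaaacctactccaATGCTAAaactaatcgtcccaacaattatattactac

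The light-strand RNAs also differ from the heavy-strand RNAs in base composition. MT-ND6 held 35.6% G and 7.05% C, against 6.28% to 16.2% G and 29.5% to 36.0% C in the 12 heavy-strand mRNAs. The 8 light-strand tRNAs held 23.5% to 36.1% G, against 10.3% to 19.1% in the 14 heavy-strand tRNAs. The 6 tRNA genes whose levels could be tested are printed as RNA-sense DNA from the GENCODE release 29 transcripts. Among them, 5 are light-strand genes and hold most of the reads counted on such genes beside MT-ND6. No strand setting is given, so from which strand's RNA these reads came was not tested. In the order printed, the 6 genes lie at chrM:15956-16023, chrM:4329-4400, chrM:7446-7514, chrM:5826-5891 and chrM:14674-14742 on the minus strand and at chrM:15888-15953 on the plus strand.
MT-TP: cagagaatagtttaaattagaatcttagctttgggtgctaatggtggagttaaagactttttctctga
MT-TQ: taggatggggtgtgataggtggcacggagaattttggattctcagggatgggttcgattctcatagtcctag
MT-TS1: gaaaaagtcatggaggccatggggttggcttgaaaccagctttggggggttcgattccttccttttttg
MT-TY: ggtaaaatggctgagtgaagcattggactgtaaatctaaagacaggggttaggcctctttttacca
MT-TE: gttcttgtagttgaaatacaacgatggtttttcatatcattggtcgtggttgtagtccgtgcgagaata
MT-TT: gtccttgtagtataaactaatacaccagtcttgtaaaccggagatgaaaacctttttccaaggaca

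Levels are FPKM, fragments per kilobase of gene and per unit of sequencing depth, after a scaling that sets the typical gene equal between libraries. The inferred depth was 34530000 reads for glutamine deprivation, 36850000 and 35130000 reads for glucose deprivation and 35470000 and 48930000 reads for control. At these depths the 37 genes took 1.08% of reads in the glutamine-deprived library, 0.522% and 0.455% in the glucose-deprived libraries and 0.450% and 0.429% in the control libraries. The RNA had been depleted of rRNA before sequencing, so the levels of the 2 mitochondrial rRNAs are those that depletion left. Of 7 lung epithelial markers, KRT18 stood at 15.96 to 21.7 FPKM and KRT8 at 4.15 to 5.51 FPKM in the 5 libraries, whereas EPCAM did not exceed 0.138 FPKM, CDH1 did not exceed 0.250 FPKM and KRT19 was listed at 0 in all 5. Of 14 markers of other cell types, 2 passed 1 FPKM in at least 1 library, SYP and COL1A1, and the list summed to 6.79 FPKM without glutamine, 5.36 and 6.12 FPKM without glucose and 5.19 and 4.01 FPKM in control, with PTPRC, CD3E and PECAM1 at or near 0. COL1A1 passed only in the glutamine-deprived library, at 1.83 FPKM. It stood at 0.384 and 0.388 FPKM without glucose and at 0.642 and 0.574 FPKM in control. As that library alone brought it into the test, its levels are a description only. Without glutamine SYP was higher than in control (limma on log2 values), with 3.17 FPKM against 2.51 and 2.00 FPKM (0.36 ± 0.12 log2, adjusted p = 0.0399). KRT18 was lower (-0.32 ± 0.09 log2, adjusted p = 0.0244). Without glucose SYP (0.66 ± 0.10 log2, adjusted p = 0.000955) and KRT8 (0.20 ± 0.07 log2, adjusted p = 0.0396) were higher. KRT18 (-0.27 ± 0.08 log2, adjusted p = 0.0189) was lower without glucose. Their part in the mitochondrial values was not tested.

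In control medium the mRNA levels per length were very uneven. MT-CO3 stood at 2015 ± 87.0 FPKM (SD, n = 2), MT-CO1 at 1085 ± 34.0 FPKM and MT-CO2 at 783 ± 40.7 FPKM. These 3 core subunits of cytochrome c oxidase, complex IV, made up 89.7% and 90.1% of the summed mRNA level in the control libraries. Next came MT-ND3 at 93.6 ± 24.9 FPKM, MT-CYB at 72.3 ± 3.21 FPKM and MT-ATP6 at 65.1 ± 1.80 FPKM, whose order is not beyond the spread of MT-ND3. MT-ND6 followed at 49.9 ± 0.985 FPKM and MT-ND4 at 44.8 ± 0.299 FPKM, and the lowest was MT-ATP8 at 8.68 ± 1.35 FPKM. The highest heavy-strand mRNA exceeded the lowest by 215 and 253 times in FPKM in the control libraries, although all of them are cut from a shared precursor. The lowest, MT-ATP8, is translated from a shared RNA with MT-ATP6, but its FPKM was 0.145 and 0.121 of that of MT-ATP6 in these libraries. How far the counting of reads on short or overlapping genes enters this range was not tested.

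**Figure D1:**
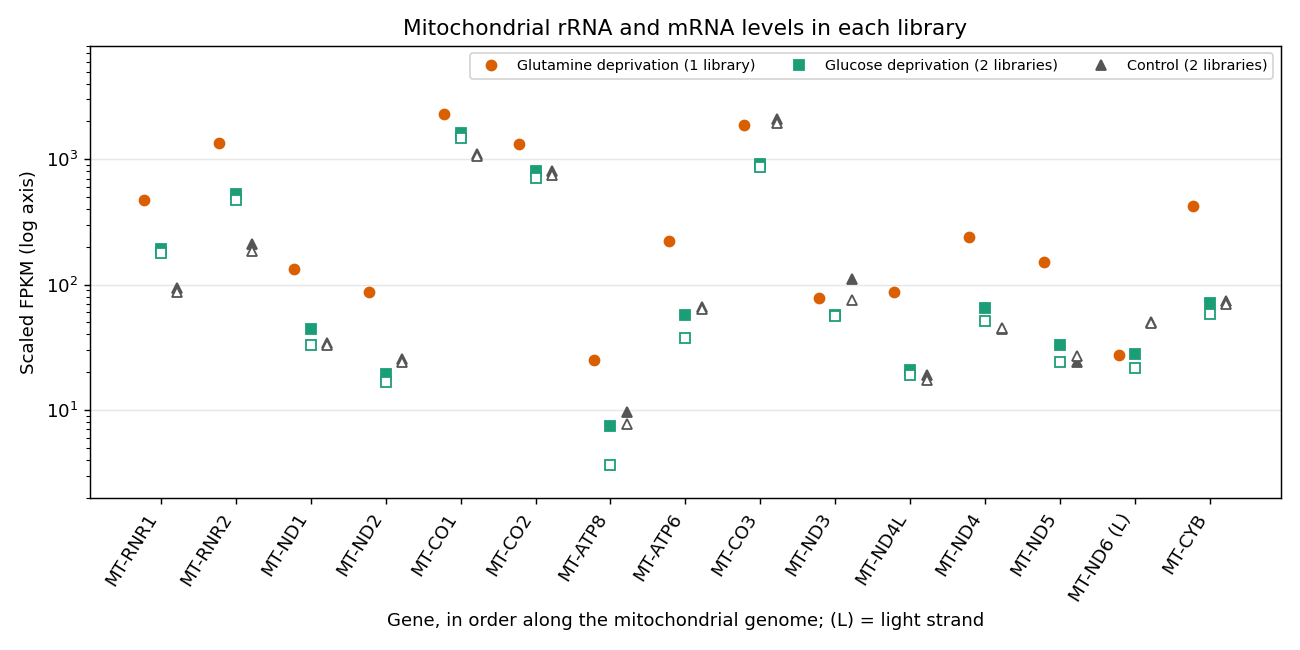
Scaled FPKM (log axis) of the 2 rRNAs and 13 mRNAs in every library, in order along the mitochondrial genome, with MT-ND6 marked (L) for the light strand; filled symbols are replicate 1 and open symbols replicate 2. The glutamine-deprived library lies above both controls for both rRNAs and for 10 mRNAs, and below both controls for MT-CO3 and MT-ND6.

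Without glutamine, 13 of the 15 heavy-strand RNAs that could be tested rose, while the light-strand mRNA fell. Of the 37 genes, 21 reached 1 FPKM in at least 1 library and were tested, and 13 of them were higher and 3 lower than in control (limma, adjusted p under 0.05). Of all 16600 genes tested, 51.1% were called, 24.8% as higher and 26.3% as lower. The split of all calls depended on the scaling, with 48.5% of them higher here, against 91.1% under scaling to the total. The 13 mRNAs had a median log2 fold change of 1.76, against 0.05 over all genes tested. In bulk RNA, more transcripts per cell and a change in the mix of cells cannot be told apart. This comparison rests on 1 deprived library, whose spread is assumed to be that of the other groups.

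Complex I, the NADH dehydrogenase that feeds electrons into the chain, has 7 mitochondrial subunits, and 5 of these mRNAs rose without glutamine. MT-ND5 stood at 150.2 FPKM in the glutamine-deprived library and at 24.1 and 26.7 FPKM in the control libraries, which gives 2.52 ± 0.15 (log2 fold change ± SE; adjusted p = 3.6e-05). MT-ND4, a proton-pumping subunit like MT-ND5, stood at 239 FPKM without glutamine and at 44.6 and 45.0 FPKM in control (2.39 ± 0.11 log2, adjusted p = 2.87e-05). MT-ND4L, whose frame overlaps MT-ND4 by the 7 bases shown above, stood at 87.9 FPKM without glutamine and at 19.0 and 17.4 FPKM in control (2.21 ± 0.10 log2, adjusted p = 2.87e-05). In these 3 genes the deprived library lay far above both controls, which lay close together. MT-ND1, the subunit beside the quinone site, stood at 133 FPKM without glutamine and at 33.9 and 32.7 FPKM in control (1.97 ± 0.14 log2, adjusted p = 5.41e-05). MT-ND2, another proton-pumping subunit, stood at 87.1 FPKM without glutamine and at 25.5 and 24.0 FPKM in control (1.78 ± 0.09 log2, adjusted p = 2.87e-05). Again the deprived library stood apart. The remaining heavy-strand subunit, MT-ND3, did not pass the test: it stood at 77.8 FPKM without glutamine, between the 111 and 76.0 FPKM of the controls (-0.24 ± 0.18 log2, adjusted p = 0.305).

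The largest rise of an mRNA was that of MT-CYB, cytochrome b, the only mitochondrial subunit of complex III. It stood at 422 FPKM in the glutamine-deprived library and at 74.6 and 70.0 FPKM in the control libraries, or 2.53 ± 0.10 on the log2 scale (adjusted p = 2.38e-05). That rise and the one of MT-ND5 differed by less than their SE. The ATP synthase (complex V) pair also rose. MT-ATP6, the subunit that carries the proton path, stood at 223 FPKM without glutamine and at 66.4 and 63.8 FPKM in control (1.76 ± 0.20 log2, adjusted p = 0.000265). MT-ATP8, the small accessory subunit, stood at 24.9 FPKM without glutamine and at 9.64 and 7.72 FPKM in control (1.43 ± 0.32 log2, adjusted p = 0.00722). The deprived library was above both controls for both genes. MT-ATP8 lost its call without control replicate 1 (adjusted p = 0.05002) or replicate 2 (adjusted p = 0.0867). With no filter on low values, which adds many unexpressed genes to the fit, both lost theirs (adjusted p = 0.0512 for MT-ATP6 and 0.146 for MT-ATP8).

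The abundant complex IV mRNAs moved least among the heavy-strand mRNAs that rose. MT-CO1, the catalytic subunit, stood at 2299.7 FPKM in the glutamine-deprived library and at 1109 and 1061 FPKM in control (1.08 ± 0.08 log2, adjusted p = 4.89e-05). MT-CO2, which receives electrons from cytochrome c, stood at 1315 FPKM without glutamine and at 812 and 754 FPKM in control (0.75 ± 0.08 log2, adjusted p = 0.000256). Both had the deprived library above both controls. MT-CO3, a core subunit without a redox centre, stood at 1869 FPKM without glutamine and at 2076 and 1953 FPKM in control, just below both controls, and did not pass the test (-0.11 ± 0.06 log2, adjusted p = 0.197). MT-CO3 and MT-ND3 are neighbours on the heavy strand, separated only by the glycine tRNA gene MT-TG, and were the only heavy-strand mRNAs of 12 that were not called in this comparison. The sign of both changes turned with the scaling: under scaling to the total they were 0.21 for MT-CO3 and 0.08 for MT-ND3. MT-CO1, MT-CO2 and MT-CO3 together made up 78.8% of the summed mRNA level without glutamine, against 89.7% and 90.1% in control.

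Both rRNAs rose, and MT-RNR2 had the highest log2 fold change of all 21 tested genes. MT-RNR2, the large (16S) rRNA of the mitochondrial ribosome, stood at 1351 FPKM in the glutamine-deprived library and at 209 and 184 FPKM in control (2.77 ± 0.09 log2, adjusted p = 1.48e-05). MT-RNR1, the small (12S) rRNA, stood at 476 FPKM without glutamine and at 93.9 and 87.9 FPKM in control (2.38 ± 0.07 log2, adjusted p = 7.74e-06). The deprived library was far above both controls for each. Both lie near the heavy-strand promoter, after the phenylalanine tRNA gene MT-TF and with the valine tRNA gene MT-TV between them. They took 25.6% of all mitochondrial reads without glutamine, against 8.88% and 8.41% in control. How much of each rRNA the depletion left behind in each library was not tested.

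MT-ND6, the complex I subunit of the light strand, fell while 5 of its 6 heavy-strand complex I partners rose, MT-ND3 being the one that was not called. It stood at 27.4 FPKM in the glutamine-deprived library and at 50.6 and 49.2 FPKM in the control libraries, or -0.84 ± 0.13 on the log2 scale (adjusted p = 0.0011). The deprived library lay well below both controls, and the call was lost with no filter on low values (adjusted p = 0.0679). MT-ND6 and MT-ND5 abut tail to tail on opposite strands, at chrM:14149-14673 and chrM:12337-14148. The ratio of MT-ND6 to MT-ND5 was 0.182 without glutamine and 2.10 and 1.84 in control. Light-strand genes as a whole took 0.206% of mitochondrial reads without glutamine, against 0.723% and 0.742% in control. As no strand setting is given, these are reads counted on light-strand genes. Whether they came from light-strand RNA was not tested, here or in the other comparisons.

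**Figure D2:**
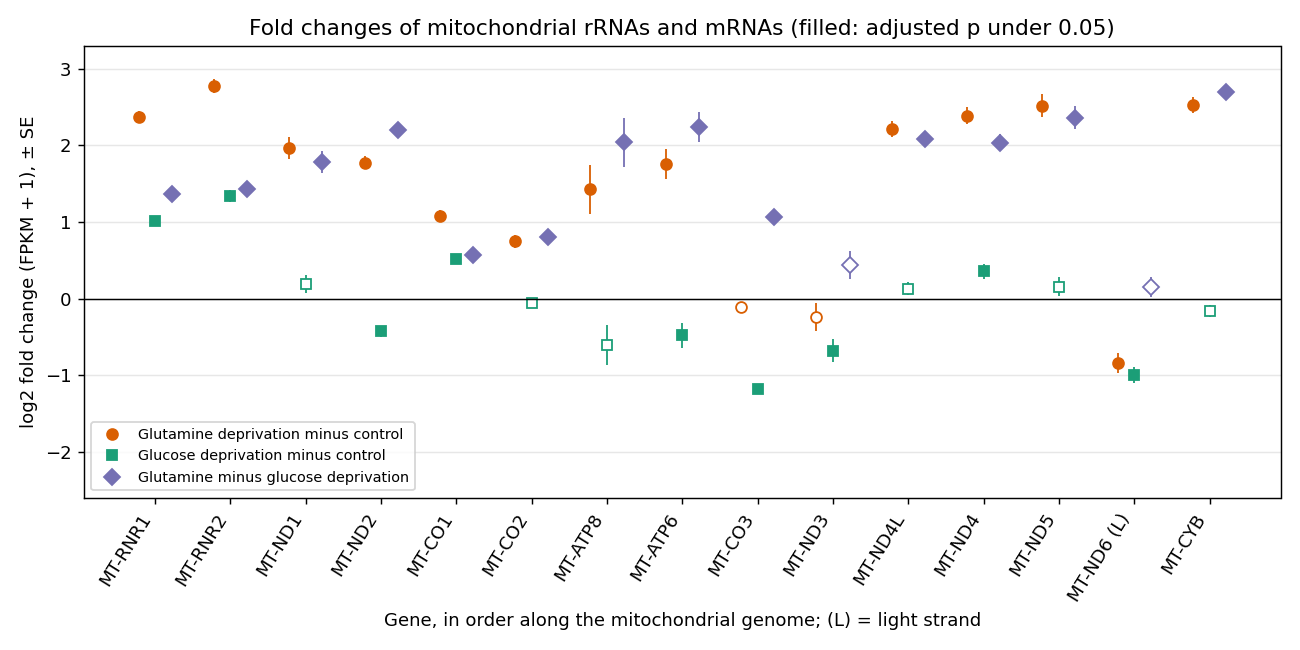
Log2 fold change (FPKM + 1, ± SE) of each rRNA and mRNA in the 3 comparisons, in order along the mitochondrial genome; filled symbols passed an adjusted p of 0.05. For glutamine deprivation against control the values are highest at both ends of the heavy strand (2.77 for MT-RNR2 and 2.53 for MT-CYB), lowest on that strand in its middle (-0.11 for MT-CO3 and -0.24 for MT-ND3), and below 0 for MT-ND6.

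Without glucose the mitochondrial RNAs changed in both directions, with both rRNAs higher and MT-CO3 and MT-ND6 lower. Of the 21 tested genes 4 were higher and 8 lower than in control, against 54.7% of all genes called, 26.5% higher and 28.2% lower (limma, adjusted p under 0.05), so this share is near that of all genes. Of the calls over all genes 48.5% were higher, or 68.0% under scaling to the total and 60.0% under upper-quartile scaling. The 13 mRNAs had a median log2 fold change of -0.16, against 0.03 over all genes.

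The rRNAs rose here too. MT-RNR2 stood at 529 and 469 FPKM in the glucose-deprived libraries and at 209 and 184 FPKM in control (1.34 ± 0.08 log2, adjusted p = 1.45e-05). MT-RNR1 stood at 192 and 177 FPKM without glucose and at 93.9 and 87.9 FPKM in control (1.01 ± 0.05 log2, adjusted p = 1.14e-05). For both the 2 deprived libraries lay above the 2 controls. The rRNAs took 19.6% and 19.4% of mitochondrial reads without glucose, against 8.88% and 8.41% in control.

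Among the complex IV mRNAs the members split. MT-CO1 rose, with 1623 and 1479 FPKM without glucose and 1109 and 1061 FPKM in control (0.51 ± 0.06 log2, adjusted p = 0.000332). MT-CO3 fell, with 912 and 869 FPKM without glucose and 2076 and 1953 FPKM in control (-1.18 ± 0.05 log2, adjusted p = 6.39e-06). The groups did not overlap for either gene, although both encode subunits of the same enzyme. MT-CO2 overlapped between the groups, with 803 and 706 FPKM without glucose and 812 and 754 FPKM in control (-0.06 ± 0.07 log2, adjusted p = 0.511).

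MT-CO3 was thus the mRNA with the largest fall, and MT-ND6 came next. MT-ND6 stood at 27.8 and 21.8 FPKM in the glucose-deprived libraries and at 50.6 and 49.2 FPKM in control (-0.99 ± 0.10 log2, adjusted p = 0.000161). Both deprived libraries lay below both controls. MT-ND3 stood at 57.4 and 56.6 FPKM without glucose and at 111 and 76.0 FPKM in control (-0.68 ± 0.15 log2, adjusted p = 0.0058), with the controls far apart from each other. Its call was lost without glucose deprivation replicate 1 (adjusted p = 0.0741) or replicate 2 (adjusted p = 0.0766), with the robust option (adjusted p = 0.0521) and with no filter on low values (adjusted p = 0.167).

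The other mRNAs had smaller log2 fold changes than MT-ND3 without glucose, called or not. MT-ND2 fell, with 19.5 and 16.8 FPKM without glucose and 25.5 and 24.0 FPKM in control (-0.43 ± 0.07 log2, adjusted p = 0.00171). MT-ATP6 fell, with 57.5 and 37.5 FPKM without glucose and 66.4 and 63.8 FPKM in control (-0.48 ± 0.16 log2, adjusted p = 0.0367). MT-ND4 rose, with 64.7 and 51.2 FPKM without glucose and 44.6 and 45.0 FPKM in control (0.35 ± 0.09 log2, adjusted p = 0.0137). The 2 groups did not overlap for any of these 3, but the glucose-deprived libraries differed from each other for MT-ATP6 and MT-ND4. Leaving out control replicate 1 or control replicate 2 ended the call of MT-ATP6 (adjusted p = 0.219 and 0.182) and of MT-ND4 (adjusted p = 0.127 and 0.12), and MT-ATP6 was called under 8 of 16 alternatives. MT-ND2 lost its call under scaling to the total (adjusted p = 0.0752), under the total without the mitochondrial genes (adjusted p = 0.0797) and with no filter on low values, where MT-ND4 and MT-ATP6 lost theirs too. MT-ND1, MT-ND4L, MT-ND5, MT-CYB and MT-ATP8 were not called, with log2 fold changes between -0.61 and 0.19 and adjusted p-values from 0.0811 for MT-ATP8 to 0.329 for MT-ND5. MT-ATP8 stood at 7.51 and 3.66 FPKM without glucose and at 9.64 and 7.72 FPKM in control, with both deprived libraries below both controls. It was called as lower under 5 of 16 alternatives, and MT-CYB under 3 of 16.

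Glutamine deprivation was also compared with glucose deprivation directly, which tests where the responses differ and has dialyzed serum on both sides. Of the 21 tested genes 15 were higher without glutamine than without glucose and 0 were lower, against 44.5% of all genes called, 22.5% higher and 22% lower. MT-TP alone had a negative value in the fit, at -0.04 ± 0.15 log2 units (limma, adjusted p = 0.865), so none was lower at an unadjusted p under 0.05 either. Of the calls over all genes 50.5% were higher, or 85.5% under scaling to the total. The 13 mRNAs had a median log2 fold change of 2.04, or 1.61 without glucose deprivation replicate 2, against 0.01 over all genes. MT-CYB differed most, with 422 FPKM without glutamine and 70.7 and 58.6 FPKM without glucose (2.69 ± 0.10 log2, adjusted p = 1.9e-05). MT-ND5 (2.36 ± 0.15), MT-ATP6 (2.24 ± 0.20) and MT-ND2 (2.20 ± 0.09) followed. The glutamine-deprived library lay above both glucose-deprived libraries for 19 of the 21 genes, MT-ND6 and MT-TP being the others. This placement was not counted over all genes, so with 1 library against 2 it is a description only.

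The order of the 12 heavy-strand mRNAs in this direct comparison ran against their abundance in control, with a Spearman correlation of -0.54 across 12 genes. These genes share libraries, depth and a precursor, so the value is a description. At the low end, MT-CO1 was 0.57 ± 0.08 log2 units higher without glutamine than without glucose (adjusted p = 0.000908), MT-CO2 0.80 ± 0.08 (adjusted p = 0.000323) and MT-CO3 1.07 ± 0.06 (adjusted p = 5.28e-05). MT-ND3 did not pass the test at 0.44 ± 0.18 log2 units (adjusted p = 0.0846; called as higher under 6 of 15 alternatives), nor did MT-ND6 at 0.15 ± 0.13 (adjusted p = 0.377), whose glutamine-deprived value of 27.4 FPKM lay between the 27.8 and 21.8 FPKM of the glucose-deprived libraries. A missed threshold does not show that MT-ND6 was equally low in both.

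Ratios of 2 RNAs within a library do not depend on the scaling. With 2 libraries against 2, an exact two-sided permutation test cannot go below p = 0.333, so these ratios are given as values. MT-CO3 over MT-CO1 was 0.813 without glutamine, 0.562 and 0.587 without glucose and 1.87 and 1.84 in control, so that the order of the 2 most abundant mRNAs was turned round in all 3 deprived libraries. MT-ND6 over MT-ND5 was 0.182 without glutamine, 0.838 and 0.898 without glucose and 2.10 and 1.84 in control. In both ratios each deprived library lay below both controls.

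MT-CYB over MT-CO1 separated the deprivations from each other. It was 0.183 without glutamine, 0.0436 and 0.0396 without glucose and 0.0672 and 0.0660 in control, above control without glutamine and below it without glucose. MT-RNR2 over MT-CO1 was 0.587 without glutamine, 0.326 and 0.317 without glucose and 0.189 and 0.174 in control, higher in every deprived library. MT-RNR2 over MT-RNR1 was 2.84 without glutamine, 2.75 and 2.65 without glucose and 2.23 and 2.10 in control. Within the pairs translated from a shared RNA, MT-ATP8 over MT-ATP6 was 0.112 without glutamine, 0.131 and 0.0976 without glucose and 0.145 and 0.121 in control. The glutamine-deprived library lay below both controls, and the glucose-deprived and control libraries overlapped. MT-ND4L over MT-ND4 was 0.368 without glutamine, 0.324 and 0.372 without glucose and 0.425 and 0.387 in control, with every deprived library below both controls.

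**Figure D3:**
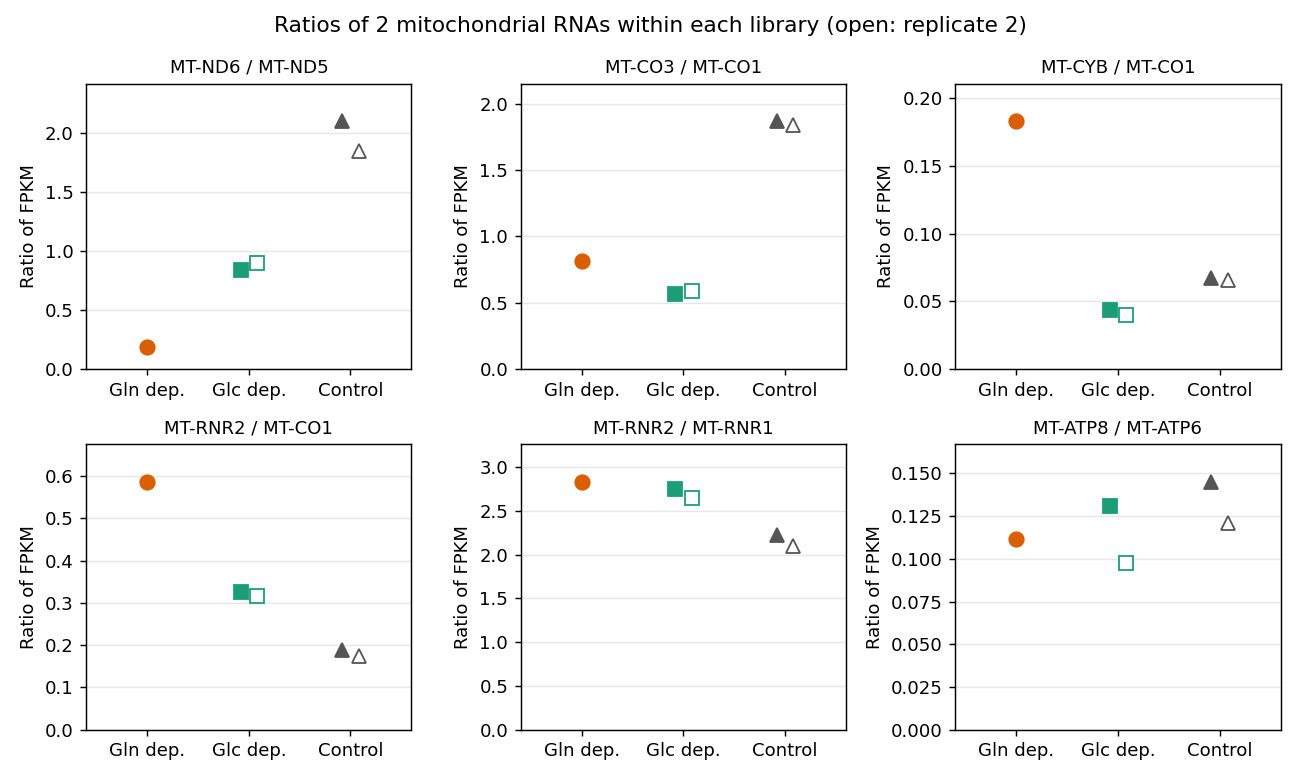
Ratio of the FPKM of 2 mitochondrial RNAs in each library, with axes from 0; open symbols are replicate 2. MT-ND6 over MT-ND5 and MT-CO3 over MT-CO1 are lower in every deprived library than in both controls, MT-RNR2 over MT-CO1 and MT-RNR2 over MT-RNR1 are higher in every deprived library, and MT-CYB over MT-CO1 is above control without glutamine and below it without glucose.

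The tRNA genes gave little signal. Of 22 tRNA genes 12 were listed at 0 in all 5 libraries and 6 passed the filter, and all of them are shorter than the 150-base reads, so that a read on a tRNA gene also covers what lies beside it. Neither the setting for reads that touch 2 genes nor a strand setting is given in the sources used here. On the light strand 5 of 8 tRNA genes passed the filter, and on the heavy strand 1 of 14. MT-TV, which lies between the 2 abundant rRNA genes, was at 0 in all 5 libraries. The part of read counting in this split between the strands was not tested.

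MT-TQ, the glutamine tRNA, and MT-TY, the tyrosine tRNA, fell in both deprivations. MT-TQ stood at 10.02 FPKM without glutamine, at 4.47 and 2.83 FPKM without glucose and at 20.4 and 18.1 FPKM in control, from 27, 12, 7, 50 and 62 inferred reads in that order. Its log2 fold change was -2.14 ± 0.22 without glucose (adjusted p = 0.000139) and -0.87 ± 0.26 without glutamine (adjusted p = 0.026), and it was higher without glutamine than without glucose (1.27 ± 0.26, adjusted p = 0.00636). MT-TY stood at 3.64 FPKM without glutamine, at 0.812 and 1.77 FPKM without glucose and at 9.33 and 18.2 FPKM in control, from 9, 2, 4, 21 and 57 inferred reads. It changed by -2.65 ± 0.35 log2 units without glucose (adjusted p = 0.000469) and by -1.60 ± 0.42 without glutamine (adjusted p = 0.0151). All deprived libraries lay below both controls for both tRNAs. Without glutamine, the call of MT-TQ was lost without control replicate 1 (adjusted p = 0.146) or control replicate 2 (adjusted p = 0.0994), and that of MT-TY without control replicate 2 (adjusted p = 0.116). The call of MT-TQ was also lost under scaling to the total (-0.58 log2, adjusted p = 0.0571), under the total without the mitochondrial genes (-0.56 log2, adjusted p = 0.0632) and under upper-quartile scaling (-0.71 log2, adjusted p = 0.0574). A pseudocount of 0.1 ended both (adjusted p = 0.109 and 0.0531), and having no filter ended every call of these tRNAs but that of MT-TQ without glucose (adjusted p from 0.053 to 0.159).

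MT-TS1, the serine tRNA that abuts the end of MT-CO1 on the opposite strand, fell without glucose. It stood at 9.30 FPKM without glutamine, at 5.05 and 6.33 FPKM without glucose and at 11.1 and 9.14 FPKM in control (-0.73 ± 0.21 log2 without glucose, adjusted p = 0.0206). That call was lost without control replicate 1 (adjusted p = 0.145), control replicate 2 (adjusted p = 0.0625) or glucose deprivation replicate 1 (adjusted p = 0.086). A pseudocount of 0.1 (adjusted p = 0.106) or no filter on low values (adjusted p = 0.082) also ended the call of MT-TS1. MT-TP, the proline tRNA and the light-strand gene nearest to its promoter, was not called in any comparison. Without glutamine it was called as higher under 2 of 15 alternatives. It stood at 65.6 FPKM without glutamine, at 71.0 and 63.8 FPKM without glucose and at 64.7 and 53.8 FPKM in control. The glutamine-deprived library lay just above both controls and the glucose-deprived and control libraries overlapped, with adjusted p-values of 0.417 and 0.22 against control. MT-TP over MT-ND6 was 2.40 without glutamine, 2.55 and 2.93 without glucose and 1.28 and 1.09 in control.

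The tested heavy-strand tRNA, MT-TT for threonine, follows MT-CYB directly. It stood at 19.8 FPKM without glutamine, at 4.47 and 9.27 FPKM without glucose and at 4.89 and 7.97 FPKM in control, and rose without glutamine (1.52 ± 0.41 log2, adjusted p = 0.0164). Its call was lost without control replicate 1 (adjusted p = 0.121) or replicate 2 (adjusted p = 0.0513). It was also higher without glutamine than without glucose (1.48 ± 0.41 log2, adjusted p = 0.0214), a call lost without control replicate 1 (0.0569), control replicate 2 (0.0616) or glucose deprivation replicate 1 (0.0907). With no filter on low values MT-TT lost its calls against control and against glucose deprivation (adjusted p = 0.176 and 0.196). A variance trend over FPKM ended both too (adjusted p = 0.0542 and 0.0666). A pseudocount of 0.1 ended the call against glucose deprivation (adjusted p = 0.0559). MT-TE, the glutamate tRNA, rested on 1 to 7 inferred reads per library and was not called in any comparison.

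**Figure D4:**
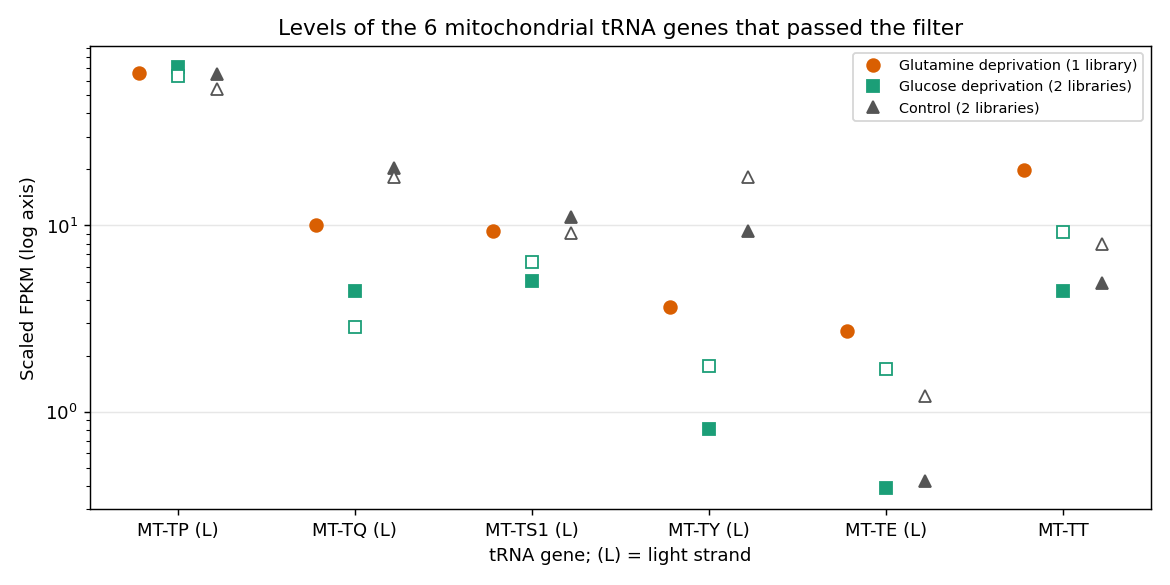
Scaled FPKM (log axis) of the 6 mitochondrial tRNA genes that passed the filter, in every library; (L) marks the light strand and open symbols are replicate 2. MT-TQ and MT-TY lie lower in every deprived library than in both controls, MT-TT is highest in the glutamine-deprived library at 19.8 FPKM, and MT-TP varies between 53.8 and 71.0 FPKM over all libraries.

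The ends of the genes varied among those that rose and those that did not. Of the 13 mRNA genes 6 end in an incomplete stop codon that is known to be completed by the poly(A) tail, namely MT-ND1, MT-ND2, MT-CO3, MT-ND3, MT-ND4 and MT-CYB, and these include both heavy-strand mRNAs that were not called without glutamine and also MT-CYB and MT-ND4, which rose. GC content lay between 39.6% and 47.7% in the 13 mRNAs, with 46.6% in MT-CO3, 40.2% in MT-ND3 and 46.3% in MT-CYB.

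The nuclear genome holds copies of mitochondrial sequence that can share reads with these genes. The tables name 408 such copies, of which 14 reached 1 FPKM in at least 1 library. All 408 copies together summed to 48.7 FPKM without glutamine, 28.4 and 22.8 FPKM without glucose and 15.2 and 14.4 FPKM in control. Of the 14 tested copies, 7 were called higher and 0 lower without glutamine, and 8 higher and 0 lower without glucose (limma). The share called in either direction was near that of all genes, 51.1% without glutamine and 54.7% without glucose. Of all genes, 24.8% were called higher without glutamine and 26.5% without glucose. MTATP6P1 was the highest, with 17.3 FPKM without glutamine, 4.05 and 2.48 FPKM without glucose and 4.13 and 4.23 FPKM in control (1.82 ± 0.20 log2 without glutamine, adjusted p = 0.000255), close in its fold change to the 1.76 ± 0.20 of MT-ATP6. MTND2P28 likewise changed by 1.48 ± 0.20 log2 units (adjusted p = 0.000569), beside 1.78 ± 0.09 for MT-ND2. MTCO1P12 (0.85 ± 0.14 log2) passed the test, while MTND2P2 (0.38 ± 0.19) and MTCO1P19 (0.35 ± 0.31) did not. Without glucose MTND2P2 rose (0.72 ± 0.15 log2, adjusted p = 0.00509) while MT-ND2 fell (-0.43 ± 0.07). Their part in the levels of the mitochondrial genes was not tested.

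Mitochondrial RNAs are made, processed and degraded by proteins encoded in the nucleus. Under the scaling used here, more of the genes for these factors fell than rose in both deprivations. Of 11 genes for mitochondrial transcription, 0 rose and 6 fell without glutamine, with a median log2 fold change of -0.34 against 0.05 over all genes, and 0 rose and 7 fell without glucose, with a median of -0.41 against 0.03. At this threshold 24.8% of all genes rose and 26.3% fell without glutamine, and 26.5% rose and 28.2% fell without glucose. Under scaling to the total, 91.1% of all calls without glutamine and 68.0% of those without glucose were higher. The falls in these lists therefore hold for the scaling used here, and how many remain under other scalings is not given. TFAM, which packages the genome and activates both promoters, stood at 19.6 FPKM without glutamine, 23.8 and 22.3 FPKM without glucose and 32.2 and 32.8 FPKM in control, and fell in both (-0.70 ± 0.06 log2, adjusted p = 6.91e-05, and -0.48 ± 0.05 log2, adjusted p = 0.000108). TFB2M, which opens the promoter, stood at 7.60 FPKM without glutamine, 8.58 and 9.93 FPKM without glucose and 13.2 and 13.9 FPKM in control, and fell too (-0.76 ± 0.09 and -0.51 ± 0.08 log2, adjusted p = 0.000391 and 0.000897). The RNA polymerase gene itself, POLRMT, stood at 14.8 FPKM without glutamine, 13.6 and 16.1 FPKM without glucose and 14.3 and 14.7 FPKM in control, with adjusted p-values of 0.823 and 0.735. The elongation factor gene TEFM fell without glucose (-0.50 ± 0.09 log2, adjusted p = 0.00287) and was at -0.31 ± 0.11 without glutamine (adjusted p = 0.0526). MRPL12, a ribosomal protein that has been described to bind the polymerase, fell by 0.64 ± 0.06 log2 units without glutamine (adjusted p = 0.000101) and by 1.04 ± 0.05 without glucose (adjusted p = 6.57e-06).

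Genes for RNA stability and decay fell as well. All 7 members of this list fell without glutamine (median -0.56), whereas without glucose 6 fell and 1 rose (median -0.32). Over all genes tested, 26.3% fell without glutamine, and 28.2% fell and 26.5% rose without glucose. SLIRP, which together with LRPPRC holds mitochondrial mRNAs stable, stood at 15.7 FPKM without glutamine, 17.4 and 18.3 FPKM without glucose and 36.0 and 35.2 FPKM in control (-1.13 ± 0.06 log2, adjusted p = 2.87e-05, and -0.96 ± 0.05 log2, adjusted p = 8.35e-06). LRPPRC stood at 40.6 FPKM without glutamine, 53.3 and 51.0 FPKM without glucose and 45.1 and 45.8 FPKM in control, a fall of small size without glutamine (-0.16 ± 0.05 log2, adjusted p = 0.0354) and a rise of small size without glucose (0.20 ± 0.04 log2, adjusted p = 0.00578). LRPPRC was lower without glutamine than without glucose (-0.35 ± 0.05 log2, adjusted p = 0.00136). PNPT1 and SUPV3L1 encode the exonuclease and helicase of the complex that degrades mitochondrial RNA, antisense light-strand RNA among it. PNPT1 changed by -0.60 ± 0.06 log2 units without glutamine (adjusted p = 0.000134) and by -0.34 ± 0.05 without glucose (adjusted p = 0.000574), and SUPV3L1 by -0.56 ± 0.06 (adjusted p = 0.000207) and -0.19 ± 0.05 (adjusted p = 0.0121) in that order. REXO2, which removes short RNA remnants, fell by 0.63 ± 0.07 log2 units without glutamine.

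Of 17 genes for RNA processing, 1 rose and 12 fell without glutamine (median -0.43), and 1 rose and 11 fell without glucose (median -0.29). The shares over all genes were 24.8% higher and 26.3% lower without glutamine, and 26.5% higher and 28.2% lower without glucose. TRMT10C and HSD17B10, subunits of the enzyme that cuts the 5′ ends of mitochondrial tRNAs, were among the processing genes that fell. TRMT10C stood at 24.1 FPKM without glutamine, 24.4 and 24.1 FPKM without glucose and 47.1 and 45.5 FPKM in control (-0.92 ± 0.05 and -0.90 ± 0.04 log2), and HSD17B10 changed by -0.64 ± 0.06 and -0.69 ± 0.05 log2 units. PRORP, the nuclease subunit of the same enzyme, fell without glucose (-0.52 ± 0.05 log2, adjusted p = 7.52e-05) and was at -0.11 ± 0.06 without glutamine (adjusted p = 0.151). FASTKD5, needed for the ends that no tRNA marks, changed by -0.63 ± 0.09 log2 units without glutamine and by -0.90 ± 0.07 without glucose.

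Genes for modification, translation and replication were counted in the same way. Over all genes, 24.8% rose and 26.3% fell without glutamine, and 26.5% rose and 28.2% fell without glucose. Of 24 genes for tRNA and rRNA modification 0 rose and 16 fell without glutamine (median -0.32), and 4 rose and 10 fell without glucose (median -0.12), YRDC, MRM3 and ALKBH1 being the largest falls without glutamine (-0.93, -0.71 and -0.68 log2). Of 13 genes for translation factors 0 rose and 10 fell without glutamine (median -0.36), and 2 rose and 8 fell without glucose (median -0.18), among them MTIF3, an initiation factor (-0.66 ± 0.07 and -0.21 ± 0.05 log2). Of 16 genes for replication and maintenance of the genome 2 rose and 8 fell without glutamine (median -0.19), and 4 rose and 6 fell without glucose (median -0.00). SSBP1, which coats single-stranded mitochondrial DNA, changed by -0.91 ± 0.05 and -0.52 ± 0.04 log2 units, and the replicative helicase gene TWNK by -0.76 ± 0.06 and -0.71 ± 0.05. Of 8 tested regulators of mitochondrial biogenesis 1 rose and 3 fell without glutamine and 2 rose and 4 fell without glucose. The share called in either direction was near that of all genes for replication without glucose (54.7%). It was also near it for the biogenesis regulators without glutamine (51.1%).

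**Figure D5:**
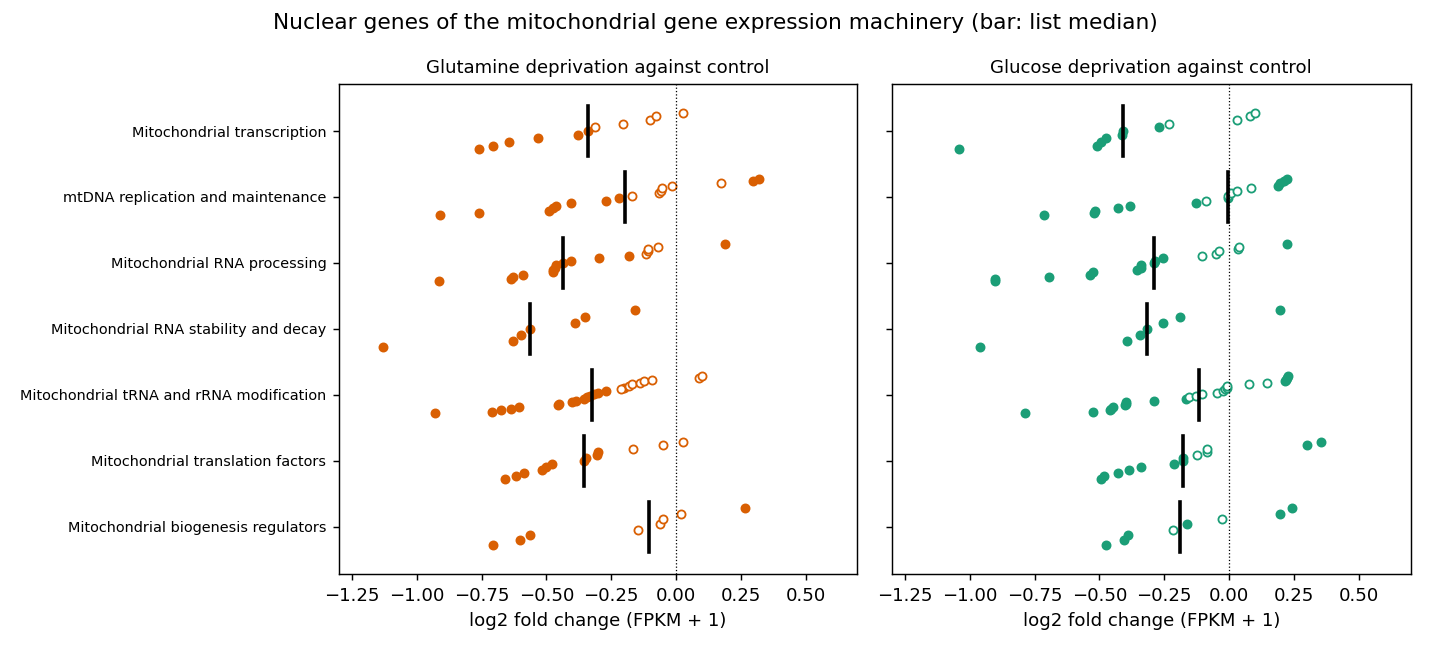
Log2 fold change (FPKM + 1) of each nuclear gene in 7 lists of the mitochondrial gene expression machinery, for glutamine deprivation (left) and glucose deprivation (right) against control; filled points passed an adjusted p of 0.05 and bars are list medians. The medians lie between -0.56 and -0.10 without glutamine and between -0.41 and -0.00 without glucose.

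Levels of a list of 7 long non-coding RNAs, NEAT1 and MALAT1 among them, are given beside these results as a sign of the RNA pool. The list was drawn up as nuclear-retained RNAs, but retention was not measured here, and it also holds SNHG1 and NORAD. Of 6 tested members of that list 4 rose and 1 fell without glutamine, and 5 rose and 0 fell without glucose. Of all genes tested, 24.8% rose and 26.3% fell without glutamine, and 26.5% rose and 28.2% fell without glucose. SNHG1 was the member that fell without glutamine (-0.23 ± 0.05 log2). NORAD changed by 0.01 ± 0.05 log2 units without glutamine and by -0.06 ± 0.04 without glucose. NEAT1 stood at 24.4 FPKM without glutamine, 21.3 and 17.0 FPKM without glucose and 4.93 and 5.89 FPKM in control, and MALAT1 at 162 FPKM without glutamine, 277 and 226 FPKM without glucose and 92.2 and 95.4 FPKM in control. Summed over the 7 listed RNAs, with 1 at 0 in each library, the level was 307 FPKM without glutamine, 429 and 369 FPKM without glucose and 210 and 218 FPKM in control. Their part in the mitochondrial values was not tested.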

How the data were processed

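Per the labels' protocols, total RNA of 95D cells was depleted of rRNA and sequenced in pairs, 150 bases per read. The authors aligned with HISAT2 2.0.5 to hg38 and used StringTie, per the submitters' processing notes; no annotation or strand setting is given in the sources used here. As no header names a unit, the authors' deposited values were read as FPKM. Value times gene length fell on whole reads within 0.05 for 95.1% to 95.8% of values of 1 to 20 reads, over 3880 to 4272 genes with a single exon, and for 18 of 18 such values of mitochondrial genes, which gave the depth. Each ± on a log2 fold change is the SE of the limma fit, and each ± on a level in FPKM is the SD of 2 libraries. In the table for glutamine deprivation, 1 value column headed as another sample was not used, so 5 of 6 labelled libraries entered.

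From these values, FPKM were divided by trimmed-mean (TMM-style) factors (ratios trimmed by 30% and abundances by 5% at each end). Genes that reached 1 FPKM somewhere were fitted on log2(FPKM + 1) with limma 3.58.1 (R 4.3.3), a scale that understates changes of genes of low abundance, with a coefficient per group over all 5 libraries, 2 residual degrees of freedom and a variance trend on inferred reads. Adjusted p-values are Benjamini-Hochberg over all 16600 genes, two-sided, and reflect no more than the spread among these libraries, which could be technical. Gene positions and sequences are from GENCODE release 29. Members and lists were chosen with earlier results of these data known. Genes named from a list are its 3 largest called changes at most, beside 8 factors named throughout; TFAM stands in 2 lists, and 1 listed gene had no entry. The fit was tested on simulated data. Alternatives covered pseudocount, filter, scaling, variance trend, robust option, replicate block, GC and length, and leaving out each library.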

Additional observations from a re-analysis of the deposited data

How the results depend on the processing

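Of 16 mitochondrial genes called in glutamine deprivation against control, 10 kept their call under every alternative run, of 12 in glucose deprivation 6 did, and of 15 in glutamine against glucose deprivation 12 did. No called gene changed sign. With no filter on low values 6 mitochondrial genes were called in glucose deprivation, against 12. The median of the 13 mRNAs in glutamine deprivation was 2.08 under scaling to the total and 2.09 under a total without the mitochondrial genes, against 1.76. Scaling to the total also moved the median of all genes to 0.30 in glutamine deprivation, against 0.05. In glutamine against glucose deprivation the median of the mRNAs lay between 1.61 and 2.15 when a library was left out. Signs turned for changes that had not passed the test, and the cause was not tested. With each library left out in turn, glucose deprivation gave -0.025 to 0.40 for MT-ND1, -0.15 to 0.037 for MT-CO2, -0.065 to 0.37 for MT-ND5, -0.36 to 0.60 for MT-TE and -0.41 to 0.50 for MT-TT. Glutamine deprivation gave -0.51 to 0.034 for MT-ND3 and -0.23 to 0.022 for MT-TS1, and glutamine against glucose deprivation gave -0.020 to 0.32 for MT-ND6 and -0.11 to 0.039 for MT-TP. Removing a trend with GC content and length gave -0.090 for MT-ND4L, -0.15 for MT-TE, -0.24 for MT-TT and -0.17 for MT-TP in glucose deprivation, -0.13 for MT-TP in glutamine deprivation and 0.048 for it in glutamine against glucose deprivation. Under scaling to the total, a total without the mitochondrial genes and upper-quartile scaling, in that order, MT-CO2 in glucose deprivation was at 0.057, 0.057 and 0.037, MT-CO3 in glutamine deprivation at 0.21, 0.23 and 0.069, MT-TS1 there at 0.19, 0.20 and 0.057, and MT-TP in glutamine against glucose deprivation at 0.17, 0.18 and 0.046. Both totals gave 0.077 and 0.093 for MT-ND3 in glutamine deprivation. With no scaling MT-CO3 was at 0.056, MT-TS1 at 0.045 and MT-TP at 0.081 in those comparisons. Replicate numbers are not known to pair libraries, as deviations of same-numbered control and glucose-deprived libraries correlated with r = -0.022 over 16600 genes. With a replicate block 17, 14 and 16 mitochondrial genes were called in the 3 comparisons in the order above, and the median of the mRNAs was 1.60, -0.16 and 1.75. Leaving out the second glutamine-deprived library was not run, as no column was mapped to it, and without the first no glutamine value is left. Depth limits the tRNA genes most, several of which rest on under 30 reads in a library.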
